A study of Rattus norvegicus with 15 samples.

Results

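A set of 10 genes that encode the intermediate filaments, the Z-disc anchors and the Xin repeat proteins of the muscle fibre were followed in multifidus muscle, a deep muscle of the back. The 10 members, Des, Vim, Nes, Synm, Flnc, Actn2, Actn3, Myot, Xirp1 and Xirp2, were taken by gene symbol from the 37991 genes of the deposited table, and all 10 were found and passed the filter on low counts that left 17201 genes for testing. Muscle came from wild-type male Sprague Dawley rats, 12 weeks old and 340 to 370 g, and was sequenced as paired-end total RNA in 15 libraries. Control rats (2 libraries) had no injury, and Surgery rats (2 libraries) had a left-sided removal of lamina with ligation of a lumbar nerve and no treatment afterwards. The pMT group (4 libraries) had the same operation and then pMT, mitochondria isolated from human plasma, at 25 µg in 100 µL at each of 2 sites, 50 µg in all, injected on day 14 with muscle taken on day 28. The VitD group (3 libraries) received cholecalciferol after surgery at 150 µg per site, 300 µg in all, and the pMT/VitD group (4 libraries) received both agents at those doses. No group injected with buffer alone was among the libraries, and the times for both groups given VitD were not given in the sources used here.

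In a striated muscle fibre the Z-disc joins the thin filaments of neighbouring sarcomeres, with α-actinin as the main crosslinker. Desmin filaments tie the Z-discs of neighbouring myofibrils to each other, to the membrane and to the nuclei. Vimentin and nestin are intermediate filament proteins of muscle precursors, young fibres and connective tissue cells, and desmin takes over as the main filament protein when fibres mature. Filamin C and the Xin repeat proteins gather at sites where sarcomeres are torn or are being rebuilt, and they mark damaged and remodelling stretches of a fibre.

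Total counts per library ran from 52342134 to 73557878, and levels are given below as CPM, counts scaled to a common library size by the trimmed mean of M values (TMM), or as TPM, the authors' length-scaled value, where genes are compared with each other. Fibre markers were abundant in every library, with a summed level of 10 skeletal muscle fibre markers from 102440 to 179213 CPM. Some libraries stood apart from their group. pMT replicate 4 differed from pMT replicates 1 to 3 by an SD of log2 ratios over genes of 0.354 to 0.552 but from pMT/VitD replicates 1 to 3 by 0.193 to 0.325. The library pMT/VitD replicate 4 was nearer to pMT replicates 1 to 3 (0.216 to 0.282) than to its own group (0.390 to 0.482). The labels were followed for both libraries; whether the 2 were exchanged or processed apart was not tested, and every pMT and pMT/VitD value rests on the labels in this respect. VitD replicate 1 had the highest summed fibroblast, macrophage and regenerating fibre markers of all 15 libraries. Calls of the 10 members that rest on these 3 libraries are given with and without them. Calls in the other gene lists and the marker sums are given with all libraries only. Since the labels do not say that replicates were separate animals, the p-values measure the spread between libraries, which may be technical. In whole muscle RNA, fewer cells of a type and less RNA per cell cannot be told apart.

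On the length-scaled TPM scale the mean level over the 15 libraries ran in the order Actn3 (4672 TPM), Des (2684 TPM), Actn2 (530 TPM), Vim (298 TPM), Flnc (143 TPM), Xirp1 (119 TPM), Myot (103 TPM), Xirp2 (99.3 TPM), Synm (97.3 TPM) and Nes (5.51 TPM). Actn3 lay above Des in 14 of 15 libraries, VitD replicate 1 being the exception, and each of Des, Actn2 and Vim lay above its next neighbour in all 15. Neighbours in the middle of the order did not separate: Flnc exceeded Xirp1 in 12 of 15 libraries, Xirp1 exceeded Myot in 9, Myot exceeded Xirp2 in 9 and Xirp2 exceeded Synm in 4. Nes was the lowest member in every library, from 2.46 to 19.97 TPM. Across libraries Xirp1 and Nes varied most, with a highest CPM 7.17 and 6.67 times the lowest, and Myot varied least, at 1.68 times.

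**Figure D1:**
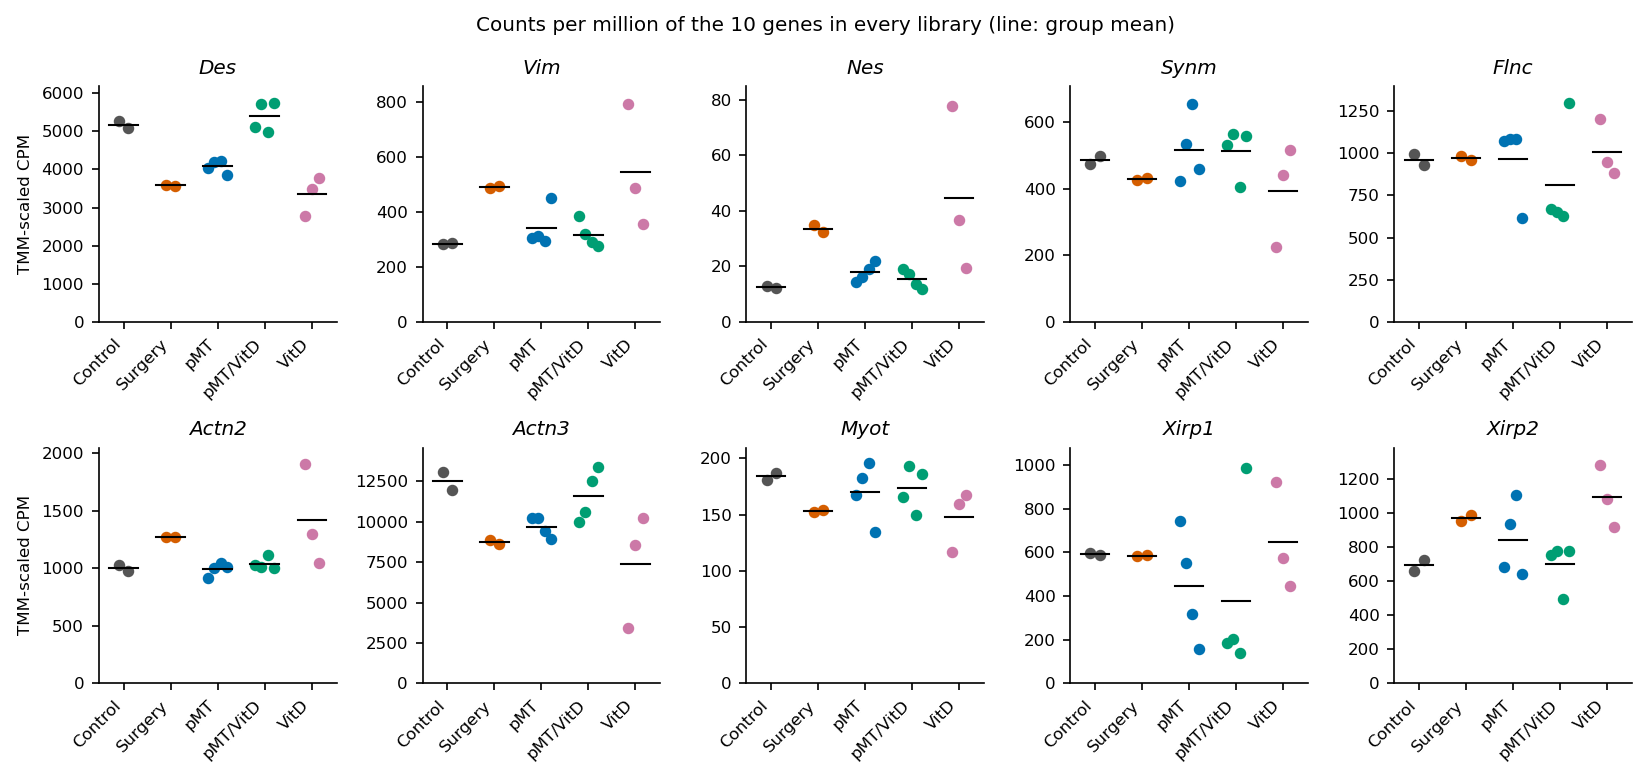
TMM-scaled CPM of the 10 genes (vertical axes, each starting at 0) in every library of the 5 groups (horizontal axes); each point is 1 library and each line is a group mean. Des is low in Surgery and VitD and high in Control and pMT/VitD, Nes and Vim show the reverse order, and single libraries of the pMT and pMT/VitD groups lie far from the rest in Flnc and Xirp1.

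The comparisons between groups used edgeR's quasi-likelihood test with Benjamini-Hochberg adjustment over all 17201 genes, and a call is an adjusted p under 0.05. No member was called in surgery minus control, where 1.55% of all genes were called (1.25% higher), and 3 members had an unadjusted p under 0.05 there against 2923 of all genes. None was called in pMT minus surgery (background 1.94%, 1 member at an unadjusted p under 0.05). Des alone was called in pMT/VitD minus surgery (background 7.44%, 2.4% higher and 5.03% lower) and Nes alone in pMT minus VitD (background 8.1%, 2.65% higher and 5.45% lower). In pMT/VitD minus VitD 4 of 10 members were called, Des higher and Vim, Nes and Xirp2 lower, beside 21.9% of all genes (9.66% higher and 12.2% lower). With both pMT groups set against both operated groups without pMT, 4 of 10 were called, Des higher and Vim, Nes and Actn2 lower, beside 23.3% of all genes (10% higher and 13.3% lower). In VitD minus control Des and Nes were called (background 8.67%, 5.48% higher and 3.2% lower), and the same pair was called when any difference among the 5 groups was tested (background 11.8%). A single call among 10 members is close to the background, and no test of the list was made. VitD minus surgery, pMT/VitD minus pMT, pMT minus control, pMT/VitD minus control and the interaction of pMT and VitD gave no call among members or among all genes (background 0%), while 139, 1737, 528, 496 and 888 of all genes had an unadjusted p under 0.05 in these 5 tests. Comparisons that share a group share its libraries, so their values are not independent of each other.

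**Figure D2:**
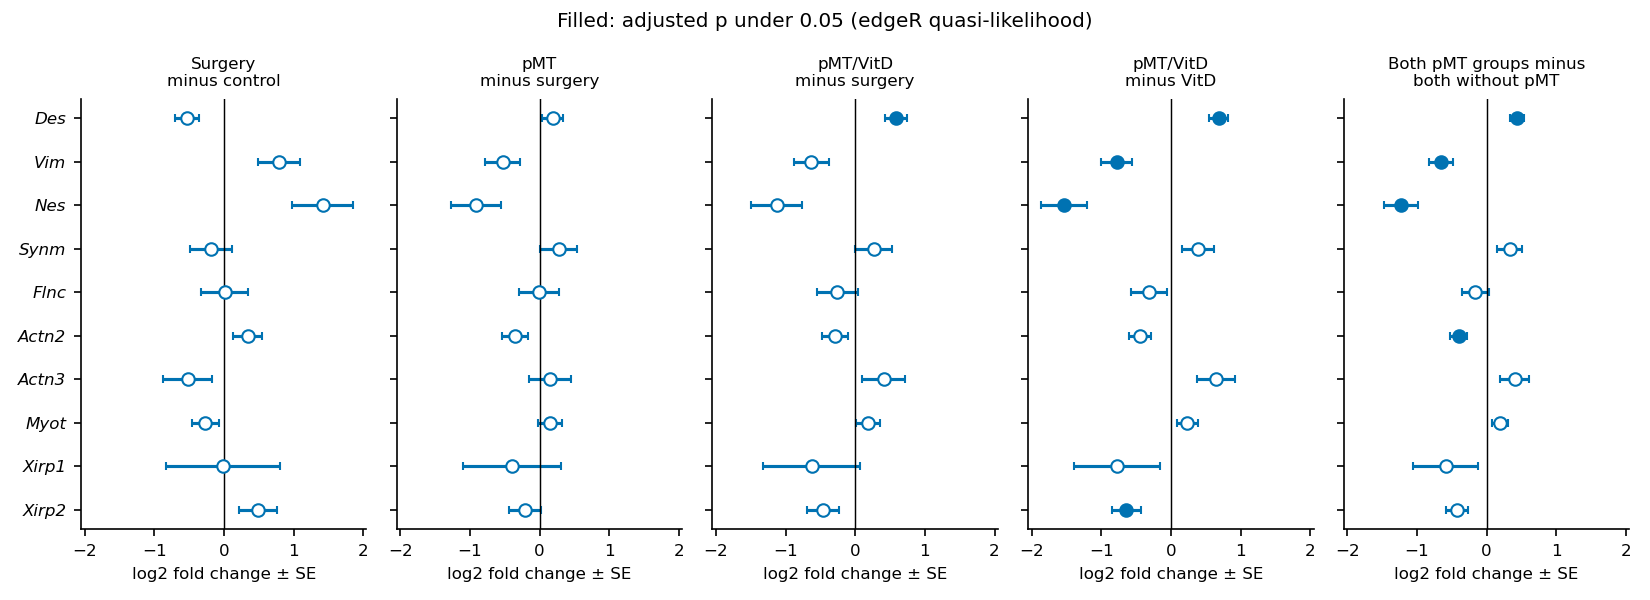
Log2 fold change with its standard error (horizontal axes) of the 10 genes (vertical axis) in 5 comparisons, from edgeR's quasi-likelihood fit; filled points have an adjusted p under 0.05. Des lies to the left of 0 after surgery and to the right in the 4 comparisons of pMT groups, Vim and Nes lie on the other side, and the standard errors of Xirp1 are the widest in each panel.

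Desmin mRNA, the main intermediate filament of mature fibres, was lower in both operated groups without pMT and close to control in the pMT/VitD group, whose difference from control was 0.06 ± 0.15 on the log2 scale (edgeR adjusted p = 0.948). Des was at 5271 and 5084 CPM in the Control libraries, 3592 and 3574 in the Surgery libraries, 4044, 4203, 4232 and 3846 in the pMT libraries, 5123, 5716, 4985 and 5748 in the pMT/VitD libraries and 2780, 3486 and 3768 in the VitD libraries. On this CPM scale all 4 pMT libraries lay between Surgery and Control without touching either, and all 4 pMT/VitD libraries lay above all pMT libraries. The TPM values did not keep this separation. Des was at 2548 to 2559 TPM in Surgery, 1801 to 3194 in pMT, 2426 to 3696 in pMT/VitD and 2920 to 3022 in Control. Surgery minus control gave a log2 fold change of -0.53 ± 0.18 (SE) with an adjusted p of 0.134 in edgeR's test. Des rose in pMT/VitD over surgery by 0.59 ± 0.16 on the log2 scale (adjusted p = 0.0361), over VitD by 0.69 ± 0.14 (adjusted p = 0.00355), and in both pMT groups over both without pMT by 0.44 ± 0.10 (adjusted p = 0.00765). Des fell in VitD minus control, by 0.63 on the log2 scale (SE 0.16, adjusted p = 0.0278). The step from pMT to pMT/VitD was 0.40 ± 0.12 with an unadjusted p of 0.00583, the only member below 0.05 there, but an adjusted p of 0.452, and pMT minus surgery was 0.19 ± 0.15 (adjusted p = 0.654). The interaction of pMT and VitD was 0.50 ± 0.20 for Des (adjusted p = 0.899).

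These Des calls differed in how firmly they held. The call against surgery was lost when any 1 of 9 libraries was left out (both Control, both Surgery, pMT replicates 1 and 2, pMT/VitD replicates 1 and 2 or VitD replicate 2), with an adjusted p of 0.0532 to 0.277 and a log2 fold change of 0.55 to 0.63 over all 15 omissions. The call against VitD was kept in all 15 omissions of 1 library, at a log2 fold change of 0.57 to 0.78, but was lost with scaling to library size alone (0.36, adjusted p = 0.0645). The call of both pMT groups was lost in 1 omission, that of Surgery replicate 2 (adjusted p = 0.0501), and the fall in VitD minus control was lost in 6 (both Control, both Surgery, VitD replicates 1 and 2, adjusted p 0.05004 to 0.198). With scaling to library size alone, which moves the median of all genes by -0.32 in pMT/VitD minus surgery and by -0.23 in both pMT groups against both without, Des was at 0.27 (adjusted p = 0.254) and 0.20 (adjusted p = 0.163), still on the higher side. Over all 29 alternatives the adjusted p of Des against surgery ran from 1.23e-05 to 0.277. The difference of surgery from control, not called with all libraries, was called without VitD replicate 1 at the same log2 value (adjusted p = 0.0354). The summed level of the 10 skeletal muscle fibre markers moved with Des by group, at 153554 to 167301 CPM in Control, 132604 to 135720 in Surgery, 135521 to 148203 in pMT, 157994 to 179213 in pMT/VitD and 102440 to 141851 in VitD. Of these 10 markers 1 was called higher in both pMT groups against both without pMT (10% of all genes) and 2 in pMT/VitD minus VitD (9.66%). None was called lower in either. By sign, 7 were higher and 3 lower in each of these comparisons, and 4 were higher and 6 lower in pMT minus surgery. The part of these markers in the Des values was not tested. Des followed Agpat1, Adipor1 and Vezt most closely over the 15 libraries (Pearson r of log2 CPM 0.98, 0.97 and 0.97, among 7804 genes whose log2 CPM averaged 3 or more).

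Vimentin, the filament protein of connective tissue cells and muscle precursors, ran opposite to desmin. Vim was at 281 and 286 CPM in Control, 487 and 494 in Surgery, 303, 313, 293 and 449 in pMT, 386, 317, 288 and 276 in pMT/VitD and 790, 486 and 357 in VitD. Every pMT and pMT/VitD library lay below both Surgery libraries, pMT replicate 4 lay nearest to them, and VitD replicate 3 lay inside the range of the pMT and pMT/VitD libraries. Surgery minus control was 0.79 ± 0.30 on the log2 scale (edgeR adjusted p = 0.191). Vim fell in both pMT groups against both without pMT, by 0.66 on the log2 scale (SE 0.17, adjusted p = 0.0131), and in pMT/VitD minus VitD by 0.78 (SE 0.23, adjusted p = 0.0244). Without VitD replicate 1 the second difference was -0.41 (adjusted p = 0.172), and it was also lost without pMT/VitD replicate 2 or 3 (lowest adjusted p of the 3 omissions 0.0539). The first was -0.47 without VitD replicate 1 (adjusted p = 0.0253) and was lost without Surgery replicate 2 (adjusted p = 0.0536). Against surgery alone the differences of pMT (-0.53 ± 0.25, adjusted p = 0.362) and pMT/VitD (-0.63 ± 0.25, adjusted p = 0.14) did not pass, although the latter did without VitD replicate 1 (adjusted p = 0.0421). VitD minus control (0.94 ± 0.28, adjusted p = 0.0507) passed without VitD replicate 3 (1.17), pMT replicate 4 (0.94) or pMT/VitD replicate 4 (0.97), at adjusted p from 0.0104 to 0.046. The difference of pMT from VitD (-0.68 ± 0.23, adjusted p = 0.0786) passed without VitD replicate 3 (-0.91, adjusted p = 0.0134) or pMT replicate 4 (-0.84, adjusted p = 0.0316). Neither VitD minus control nor pMT minus VitD was called for Vim without VitD replicate 1, its highest library. Within each library the ratio of Vim to Des, which no scaling between libraries can change, was 6.62% ± 0.250 (SD, n = 2) in Control, 16.5% ± 0.227 (n = 2) in Surgery, 10.1% ± 2.66 (n = 4) in pMT, 7.15% ± 1.40 (n = 4) in pMT/VitD and 20.9% ± 12.0 (n = 3) in VitD, from TPM. The highest pMT library, replicate 4 at 14.1%, stayed below both Surgery libraries (16.4% and 16.7%) and above the lowest VitD library (11.4%).

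Nestin, which marks young and regenerating fibres and the fibre beneath the nerve contact, had the largest fold differences of the 10 genes in the comparisons with calls. Nes was at 12.8 and 12.3 CPM in Control, 34.9 and 32.2 in Surgery, 14.5, 16.0, 18.9 and 22.0 in pMT, 19.2, 17.1, 13.5 and 11.6 in pMT/VitD and 77.6, 36.6 and 19.2 in VitD. Surgery libraries lay above every pMT and pMT/VitD library, while VitD libraries spread from just above the highest pMT/VitD library, inside the pMT range, to the highest value of all. Nes was 2.67-fold of Control in Surgery (log2 1.42 ± 0.44, edgeR adjusted p = 0.118). It fell in both pMT groups against both without pMT by 1.22 on the log2 scale (SE 0.25, adjusted p = 0.00311), a call that was kept in all 15 omissions of 1 library, and in pMT/VitD minus VitD by 1.54 (SE 0.33, adjusted p = 0.00586), also kept in all 15. It rose in VitD over control by 1.83 ± 0.42 (adjusted p = 0.0203), lost without either Control replicate (adjusted p 0.152 and 0.159) and at 1.15 without VitD replicate 1 (adjusted p = 0.0454). The fall in pMT minus VitD, by 1.32 (SE 0.33, adjusted p = 0.0253), was lost without VitD replicate 1 (-0.65, adjusted p = 0.203) and without pMT replicate 1, 2 or 3 (lowest adjusted p of the 4 omissions 0.0519). Without VitD replicate 1, pMT/VitD minus VitD was -0.86 (adjusted p = 0.036). Against surgery, pMT was at -0.91 ± 0.37 (adjusted p = 0.257) and pMT/VitD at -1.13 ± 0.36 (adjusted p = 0.0758). Without VitD replicate 1, at unchanged log2 values, these were called (adjusted p = 0.0479 and 0.00904), as was surgery minus control (adjusted p = 0.0139). The pMT/VitD minus surgery and surgery minus control differences were also called without VitD replicate 3 (adjusted p = 0.0182 and 0.0323).

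Nes and Vim moved together over the 15 libraries (Pearson r 0.97, Spearman rho 0.96, and r 0.93 without the 2 libraries farthest from the median in Vim), and both ran against Actn3 (r -0.92 for Nes and -0.89 for Vim). These correlations are descriptions over libraries that share groups and scaling. The genes most like Vim were Anxa2, Htra1 and Tspan6 (r 0.98, 0.98 and 0.98), and those most like Nes were Sparc, Aspn and LOC100911730 (r 0.97, 0.97 and 0.97). By group mean, the sums of regenerating fibre, fibroblast and macrophage markers rose from Control to Surgery and were lower in both pMT groups, as Vim and Nes were. Within the pMT group this did not hold. There replicate 4 had the highest Vim (449 CPM) and Nes (22.0 CPM) but the lowest of these sums (182, 2583 and 125 CPM). The summed level of 12 regenerating fibre and satellite cell markers was 301 to 317 CPM in Control, 820 to 825 in Surgery, 182 to 469 in pMT, 200 to 305 in pMT/VitD and 494 to 1827 in VitD. The list held Myh3, Myh8, Actc1, Myog, Myod1, Myf5, Pax7, Mymk, Mymx, Ncam1 and the acetylcholine receptor genes Chrna1 and Chrng. Actc1, Myh8 and Myh3 were the most abundant. In surgery minus control 10 of them were higher, 6 with a call, while Myh8 and Myod1 were lower. Of the 12, 9 fell in both pMT groups against both without pMT (median log2 fold change -1.29, against 0.01 over all genes), and only Myod1 lay higher, without a call. Of 8 fibroblast markers, 6 fell in that comparison (median -0.74), with sums of 2590 to 2622 CPM in Control, 4451 to 4473 in Surgery, 2583 to 2980 in pMT, 1953 to 2775 in pMT/VitD and 3754 to 6986 in VitD. All 8 macrophage markers fell there (median -1.09), with sums of 181 to 191, 343 to 349, 125 to 208, 116 to 208 and 312 to 440 CPM in the same order of groups. Of the other lists, 2 of 7 Schwann cell markers, 2 of 7 smooth muscle and pericyte markers and 2 of 8 endothelial markers were called lower and 2 endothelial markers higher, beside 13.3% lower and 10% higher over all genes. None of these markers was at 0 in all libraries, and their part in the Vim and Nes values was not tested.

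**Figure D3:**
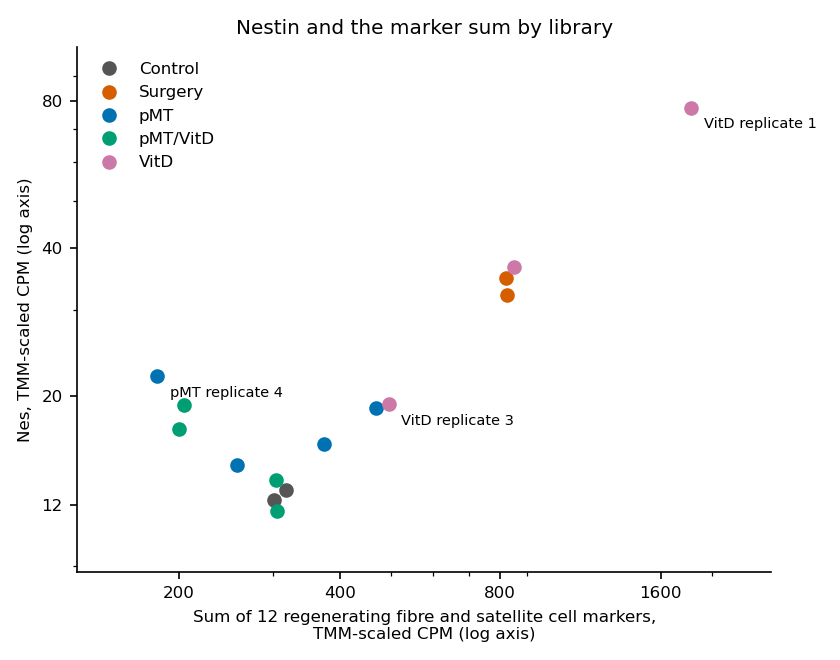
Nes (vertical axis, TMM-scaled CPM, log scale) against the summed CPM of 12 regenerating fibre and satellite cell markers (horizontal axis, log scale) in the 15 libraries, coloured by group. Surgery libraries and VitD replicates 1 and 2 lie at high marker sums with Nes at 32.2 CPM or more, while pMT replicate 4 has the lowest marker sum (182 CPM) but not the lowest Nes (22.0 CPM).

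Nestin counts may be split over a second row of the table. A row named nestin-like (LOC100910255), which has no entry in the GRCr8 gene table, held 26.2% to 38.7% of the summed counts of both rows, so part of the reads that match nestin may be counted there. The sum of both rows was 19.7 to 20.03 CPM in Control, 48.9 to 52.1 in Surgery, 22.2 to 30.8 in pMT, 18.6 to 27.7 in pMT/VitD and 29.7 to 115 in VitD. With both rows summed before the fit, Nes fell by 1.23 on the log2 scale in both pMT groups against both without pMT (edgeR adjusted p = 0.0020) and by 1.56 in pMT/VitD minus VitD (adjusted p = 0.00378), so the calls did not turn on the split.

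Synemin, a linker that joins desmin filaments to the membrane and to the Z-disc, was called in no comparison. Synm was at 476 and 498 CPM in Control, 425 and 433 in Surgery, 425, 534, 654 and 460 in pMT, 532, 564, 405 and 559 in pMT/VitD and 224, 441 and 516 in VitD. VitD replicate 1 was the lowest library and pMT replicate 3 the highest, and the ranges of all 4 operated groups overlapped. Both pMT groups minus both without pMT gave 0.33 ± 0.18 on the log2 scale (edgeR adjusted p = 0.196), from libraries that differ by 2.92 times between the lowest and the highest. Its closest genes were Lsmem1, Myom2 and Golga4 (r 0.96, 0.95 and 0.95). Of the 14 other intermediate filaments and linkers, 11 were tested. In both pMT groups against both without pMT 1 rose, the desmin partner syncoilin (Sync, 0.26 ± 0.09, adjusted p = 0.0447), and 4 fell, among them the dystrobrevin Dtnb (-0.59 ± 0.14, adjusted p = 0.00914). Over all genes 10% were called higher there and 13.3% lower. The most abundant, lamin A/C (Lmna), was at -0.35 ± 0.12 (adjusted p = 0.0545), and the list's median was -0.35. In surgery minus control none of the 11 was called.

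The 2 sarcomeric α-actinins, the Z-disc crosslinkers, ran in opposite directions. Actn3, the isoform of fast fibres, was at 13092 and 11985 CPM in Control, 8870 and 8631 in Surgery, 10208, 10212, 9457 and 8919 in pMT, 9979, 10600, 12507 and 13402 in pMT/VitD and 3392, 8565 and 10226 in VitD. In CPM all pMT and pMT/VitD libraries lay above both Surgery libraries, and pMT/VitD overlapped Control. This order did not hold in TPM, where Surgery was at 4653 to 4779, pMT at 3159 to 5430 and pMT/VitD at 3574 to 6516. The mean TPM of these groups was 4716, 4746 and 4722. No Actn3 comparison was called, with a log2 difference of -0.52 ± 0.35 for surgery minus control (edgeR adjusted p = 0.489), 0.65 ± 0.27 for pMT/VitD minus VitD (adjusted p = 0.1) and 0.40 ± 0.21 for both pMT groups (adjusted p = 0.176). Without VitD replicate 3, the VitD library nearest to Control in Actn3, pMT/VitD minus VitD was 0.96 (adjusted p = 0.029) and VitD minus control was -1.07 (adjusted p = 0.0422). Neither difference was called without VitD replicate 1, the lowest library of all for Actn3. Actn2, made in all fibre types, was at 1032 and 979 CPM in Control, 1276 and 1269 in Surgery, 919, 1005, 1046 and 1014 in pMT, 1030, 1014, 1118 and 1000 in pMT/VitD and 1904, 1300 and 1046 in VitD. The 8 libraries given pMT kept within 919 to 1118 CPM, below both Surgery libraries and around the Control libraries, with VitD replicate 3 among them. Actn2 fell in both pMT groups against both without pMT by 0.40 on the log2 scale (SE 0.12, adjusted p = 0.0299). The call was lost without either Surgery replicate, pMT replicate 1 or 2 or pMT/VitD replicate 2 (adjusted p 0.0501 to 0.102), and without VitD replicate 1 the value was -0.26 (adjusted p = 0.038). Without VitD replicate 3, Actn2 was called higher in VitD over control (0.67, adjusted p = 0.0237). It was then also called lower in pMT (-0.69, adjusted p = 0.00975) and pMT/VitD (-0.62, adjusted p = 0.00934) than in VitD. None of these 3 differences passed with all libraries (0.49 ± 0.20, -0.51 ± 0.16 and -0.45 ± 0.16). They were not called without VitD replicate 1 either, the highest library of all for Actn2.

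Within each library the TPM ratio of Actn2 to Actn3 was 7.82% ± 0.194 (SD, n = 2) in Control, 14.2% ± 0.219 (n = 2) in Surgery, 10.1% ± 1.07 (n = 4) in pMT, 8.84% ± 1.18 (n = 4) in pMT/VitD and 26.5% ± 24.6 (n = 3) in VitD. The 3 VitD libraries were at 54.7%, 14.8% and 9.97%, and all 8 libraries given pMT were at 11.1% or less. The summed level of 7 fast fibre markers, among them Mylpf and Tnnt3, was 95325 to 95811 CPM in Surgery, 119353 to 119711 in Control, 100551 to 118344 in pMT, 114039 to 135015 in pMT/VitD and 82587 to 100577 in VitD. Of these 7, only Myh4, the fastest myosin heavy chain, was called higher in both pMT groups against both without pMT (0.88 ± 0.26, edgeR adjusted p = 0.0235). There 10% of all genes were called higher, and none of 7 slow fibre markers was called. The slow fibre sum was 5677 to 5769 CPM in Surgery, 4753 to 4765 in Control, 4493 to 7902 in pMT, 4770 to 7781 in pMT/VitD and 4737 to 5966 in VitD. Actn3 followed LOC294154, Fkbp4 and Calm3 (r 0.99, 0.98 and 0.97), and Actn2 followed Myl9, LOC100912195 and Mvp (r 0.98, 0.95 and 0.95).

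Myotilin, a Z-disc protein that binds α-actinin and filamin C, is uncertain in this table, since its counts may lie on 6 rows. These rows were matched by name and not by sequence. The row Myot was at 181 and 187 CPM in Control, 152 and 154 in Surgery, 168, 182, 196 and 135 in pMT, 166, 194, 150 and 186 in pMT/VitD and 117, 159 and 168 in VitD. In CPM both Control libraries lay above all Surgery and VitD libraries, and the ranges of all other pairs of groups overlapped. In TPM Control (103.6 to 106.7) lay below Surgery (107.4 to 108.8). Another 5 rows named myotilin-like, none of them in the GRCr8 gene table, held more counts between them: Myot itself had 12.1% to 15.6% of the sum of the 6. The sum was 1263 ± 41.2 CPM (SD, n = 2) in Control, 1100 ± 18.9 (n = 2) in Surgery, 1209 ± 67.9 (n = 4) in pMT, 1266 ± 164 (n = 4) in pMT/VitD and 1090 ± 158 (n = 3) in VitD. No comparison was called for the single row or for the sum, and the sum in both pMT groups against both without pMT was at 0.18 (edgeR adjusted p = 0.233). LOC100912306 and LOC100909761, 2 of the 5, were also the genes most like Myot (r 0.99 and 0.97), followed by Ube2q2 (r 0.96).

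**Figure D4:**
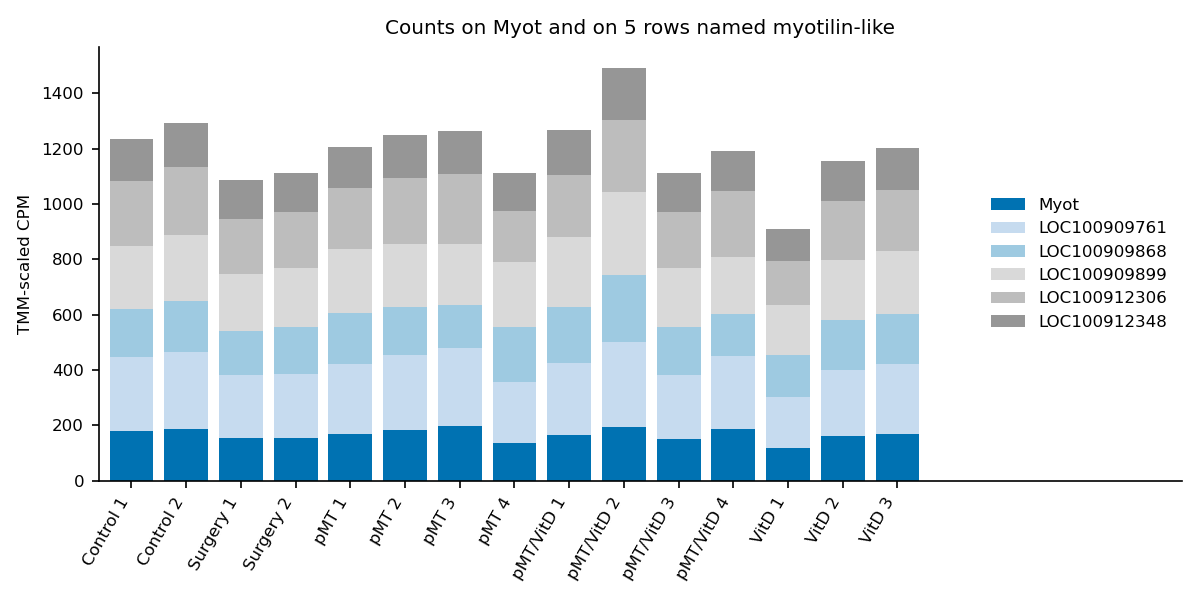
Stacked TMM-scaled CPM (vertical axis) of the row Myot and of 5 rows named myotilin-like in each library (horizontal axis, group and replicate number). Myot is the bottom segment, 12.1% to 15.6% of each bar, and the bars run from 909 CPM in VitD replicate 1 to 1494 CPM in pMT/VitD replicate 2.

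Filamin C, the actin crosslinker of the Z-disc and of the cell membrane in muscle, split the libraries in a way that the groups did not. Flnc was at 995 and 931 CPM in Control, 982 and 960 in Surgery, 1075, 1084, 1087 and 618 in pMT, 669, 653, 631 and 1299 in pMT/VitD and 1205, 947 and 881 in VitD. In the pMT group replicate 4 was far below the other 3, and in the pMT/VitD group replicate 4 was far above the other 3. Xirp1, which encodes Xin, a Z-disc and fibre end protein that binds filamin C, had the same split: 596 and 587 CPM in Control, 584 and 586 in Surgery, 746, 551, 319 and 159 in pMT, 186, 203, 138 and 987 in pMT/VitD and 923, 572 and 448 in VitD. pMT replicate 4 and pMT/VitD replicates 1 to 3 were the 4 lowest libraries for both genes, and pMT/VitD replicate 4 was the highest for both. Of the 10 members only Flnc and Xirp1 placed pMT replicate 4 with pMT/VitD replicates 1 to 3 and pMT/VitD replicate 4 with pMT replicates 1 to 3, with no overlap between these sets.

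Neither gene was called in any comparison with all libraries in the fit, and the group means carried wide errors. In pMT/VitD minus surgery Flnc was at -0.26 ± 0.29 on the log2 scale (edgeR adjusted p = 0.628) and Xirp1 at -0.63 ± 0.70 (adjusted p = 0.623), and in pMT minus surgery they were at -0.01 ± 0.29 (adjusted p = 0.995) and -0.40 ± 0.70 (adjusted p = 0.863). With pMT replicate 4 and pMT/VitD replicate 4 both left out, an omission chosen after the data were seen and on libraries that are the ones set apart in these genes, pMT/VitD minus surgery was -0.58 for Flnc (adjusted p = 0.00955) and -1.74 for Xirp1 (adjusted p = 0.00431). In the same fit pMT/VitD minus pMT was -0.73 (adjusted p = 0.00321) and -1.61 (adjusted p = 0.00528). Without pMT/VitD replicate 4 alone, Xirp1 was called lower in pMT/VitD than in surgery (-1.74, adjusted p = 0.031) and in VitD (-1.90, adjusted p = 0.00767). Xirp1 was also called lower in both pMT groups against both without pMT (-1.15, adjusted p = 0.0144). Flnc was then called in pMT/VitD minus VitD (-0.65, adjusted p = 0.0272). The results for Flnc and Xirp1 thus turned on single libraries. Both genes are long, above the 90th percentile of relative length among tested genes. Nes, Synm and Xirp2, which did not show the split, are also above it (percentiles 91.6, 92.5 and 99.2). The rank correlation of gene length with each library's deviation from the mean level ran from -0.577 to 0.645. It was negative in pMT replicate 4 and in pMT/VitD replicates 1 to 3. With a gene length offset beside the omission, pMT/VitD minus surgery was -1.55 for Xirp1 (adjusted p = 0.0281) and -0.35 for Flnc (adjusted p = 0.212). Neither gene was called in pMT/VitD minus pMT or in the interaction of pMT and VitD in that fit. The part of this length trend in the Flnc and Xirp1 values was not tested beyond that fit.

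**Figure D5:**
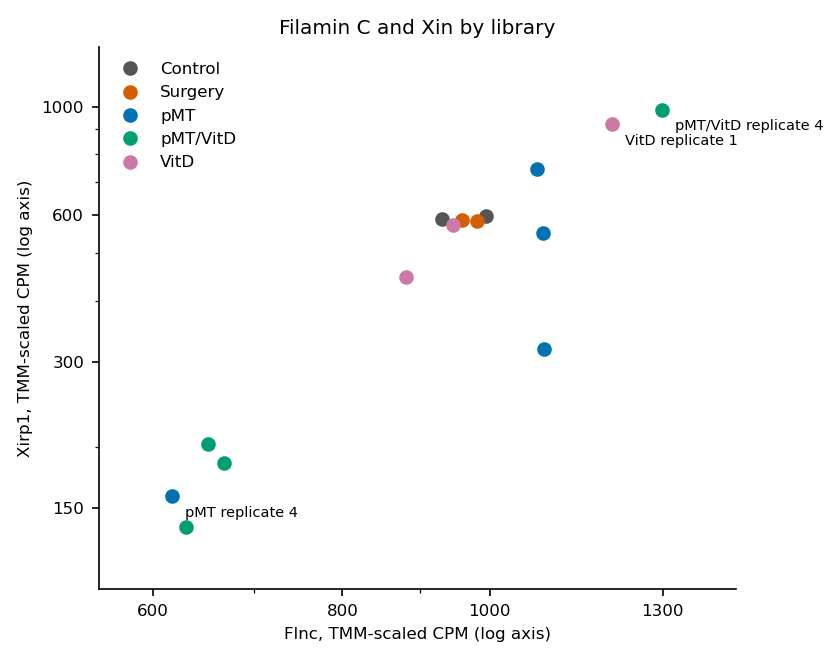
Xirp1 against Flnc in the 15 libraries (both axes TMM-scaled CPM, log scale), coloured by group. pMT replicate 4 lies with pMT/VitD replicates 1 to 3 at the lower left, pMT/VitD replicate 4 lies with VitD replicate 1 at the upper right, and Control and Surgery libraries lie together between 931 and 995 CPM of Flnc.

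Flnc and Xirp1 correlated over the 15 libraries with a Pearson r of 0.92 (Spearman rho 0.76, r 0.87 without the 2 libraries farthest from the median in Flnc). The ratio of Xirp1 to Flnc within a library, from TPM, was 93.3% ± 3.17 (SD, n = 2) in Control and 90.0% ± 1.61 (n = 2) in Surgery, and it ran from 37.7% to 102% in pMT, from 32.2% to 116% in pMT/VitD and from 76.0% to 114% in VitD. The genes most like Xirp1 were Hmox1, the stress-induced heme oxygenase, the actin regulator Enah and Fgl2 (r 0.95, 0.94 and 0.94), and those most like Flnc were Tmem43, Slc39a14 and Arhgap35 (r 0.93, 0.93 and 0.93).

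Xirp2, the second Xin repeat gene, whose protein also sits at Z-discs, did not show this split. Xirp2 was at 663 and 726 CPM in Control, 957 and 990 in Surgery, 687, 937, 1111 and 641 in pMT, 758, 780, 495 and 779 in pMT/VitD and 1282, 1086 and 922 in VitD. All pMT/VitD libraries lay below all Surgery and VitD libraries, while pMT libraries spread across both, and pMT/VitD replicate 3 was the lowest of all. Xirp2 fell in pMT/VitD minus VitD by 0.64 on the log2 scale (SE 0.21, edgeR adjusted p = 0.0382). That call was kept in 6 of 15 omissions of 1 library and lost without either Control, either Surgery, pMT/VitD replicates 1, 2 or 3, or VitD replicates 1 or 2 (adjusted p 0.0526 to 0.152), and with a gene length offset the value was -0.49 (adjusted p = 0.0883). Surgery minus control was 0.49 ± 0.27 (adjusted p = 0.385), and both pMT groups minus both without pMT was -0.42 ± 0.15 (adjusted p = 0.0609), called without pMT replicate 3 (-0.50), VitD replicate 3 (-0.48) or pMT/VitD replicate 4 (-0.46), at adjusted p from 0.0224 to 0.0486. Its closest genes were Rit1, Ets1 and Copg2 (r 0.96, 0.94 and 0.93). With Xirp1 its Pearson r was 0.51 (Spearman rho 0.25, r 0.14 without the 2 libraries farthest from the median in Xirp1).

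Because Flnc and Xirp1 moved together while Xirp2 followed another pattern, the 250 bases upstream of their starts are shown, with those of Des and Vim, which moved in opposite directions. The sequences and starts come from RefSeq on build GRCr8, while the counts were made on rn6, and 9 of the 10 members had an entry, with 3 starts for Xirp1, of which the first listed is shown. The windows are chr8:128635012-128635261 on the minus strand for Xirp1, chr3:72533936-72534185 on the plus strand for Xirp2, chr4:58999297-58999546 on the plus strand for Flnc, chr9:84299376-84299625 on the plus strand for Des and chr17:81577011-81577260 on the plus strand for Vim, each written 5′ to 3′ along the gene. Capitals mark the matches to MEF2 (the site of the myocyte enhancer factor), the AP-1 site TGANTCA, the E-box with a GC core CAGCTG, the MCAT element CATTCC and the TATA box TATAAA, searched on both strands.
Xirp1: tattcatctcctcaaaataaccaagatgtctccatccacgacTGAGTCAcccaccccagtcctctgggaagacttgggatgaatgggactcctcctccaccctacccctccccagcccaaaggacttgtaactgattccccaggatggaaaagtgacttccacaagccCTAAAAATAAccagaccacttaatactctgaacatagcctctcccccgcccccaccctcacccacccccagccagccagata
Xirp2: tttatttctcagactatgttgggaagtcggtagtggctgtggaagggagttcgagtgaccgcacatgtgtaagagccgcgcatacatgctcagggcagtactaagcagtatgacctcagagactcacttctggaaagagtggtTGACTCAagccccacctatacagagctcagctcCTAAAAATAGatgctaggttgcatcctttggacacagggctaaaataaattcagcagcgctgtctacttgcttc
Flnc: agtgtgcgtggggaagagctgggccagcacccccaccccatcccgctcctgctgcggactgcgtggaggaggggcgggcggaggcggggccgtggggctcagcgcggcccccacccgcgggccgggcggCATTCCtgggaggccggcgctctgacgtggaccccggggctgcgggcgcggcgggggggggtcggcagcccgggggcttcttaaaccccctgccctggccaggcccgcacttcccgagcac
Des: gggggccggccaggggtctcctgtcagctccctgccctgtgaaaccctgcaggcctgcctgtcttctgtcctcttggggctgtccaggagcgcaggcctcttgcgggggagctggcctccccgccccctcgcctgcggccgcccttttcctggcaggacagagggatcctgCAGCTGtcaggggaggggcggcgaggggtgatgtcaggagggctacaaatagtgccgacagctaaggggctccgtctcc
Vim: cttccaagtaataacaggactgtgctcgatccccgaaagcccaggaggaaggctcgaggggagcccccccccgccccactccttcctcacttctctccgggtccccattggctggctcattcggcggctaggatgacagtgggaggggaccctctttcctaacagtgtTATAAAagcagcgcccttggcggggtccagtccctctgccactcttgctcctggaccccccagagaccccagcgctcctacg

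Xirp1 and Xirp2 both held a MEF2 match, from -82 to -73 and from -74 to -65 relative to the start, and such a match lay in 3.07% of the 27457 genes with a window of the same length. Both also held an AP-1 match, from -208 in Xirp1 and from -107 in Xirp2 (6.36% of genes). Flnc held neither and had the MCAT element from -121 (11.8% of genes). Des had the CAGCTG E-box from -79 (11.9% of genes), a class of site bound by the myogenic factors, and Vim had a TATA box from -82 (13.1% of genes). Actn2, Actn3, Nes and Synm had none of these 5 matches. The Flnc window was the richest in G and C of the members, at 78.4%, against a median of 51.2% over all genes, and that of Xirp1 was at 53.2%. Flnc and Xirp1 shared none of the marked matches, but both held the GC box GGGCGG, which was searched and not marked (32.4% of genes). Whether any of these matches bears on the levels was not tested.

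Genes that work with the members were read from lists. Of 32 other Z-disc genes, 6 rose and 6 fell in both pMT groups against both without pMT, where 10% of all genes were called higher and 13.3% lower, with a list median of 0.10 against 0.01 over all genes. The risers included palladin (Palld, 0.96 ± 0.11, edgeR adjusted p = 5.07e-05), a partner of α-actinin and myotilin, the thin filament protein Lmod3 (0.59 ± 0.09, adjusted p = 0.000352) and calsarcin-2 (Myoz1, 0.64 ± 0.17, adjusted p = 0.0156), one of the most abundant genes of the list. The fallers included the stretch-responsive Csrp3 (-1.04 ± 0.25, adjusted p = 0.00881) and Smpx (-0.59 ± 0.14, adjusted p = 0.00717). In surgery minus control 1 of the 32 was called, Palld (-1.05 ± 0.18, adjusted p = 0.0141). Ldb3 and Fhl1, also among the most abundant, were at 0.20 ± 0.09 and -0.30 ± 0.17 and were not called.

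Of 9 genes for the chaperone-assisted turnover of damaged filamin, Sqstm1, an autophagy receptor, rose in both pMT groups (0.36 ± 0.09, edgeR adjusted p = 0.00908) and none fell, beside 10% higher and 13.3% lower over all genes. The small heat shock genes Hspb8 and Hspb7 were at -0.39 ± 0.14 and -0.52 ± 0.20 and did not pass, and Cryab, the most abundant gene of the list and a chaperone of desmin, was at 0.15 ± 0.15. Of 26 membrane repair and costamere genes, 3 rose and 6 fell, beside the same background of 10% and 13.3%. The dysferlin relative Myof, which serves myoblast fusion, fell by 0.99 on the log2 scale (SE 0.11, adjusted p = 5.93e-05) after a rise in surgery over control of 1.003 ± 0.199 (adjusted p = 0.0275), and the focal contact gene Parva fell by 0.50 (SE 0.09, adjusted p = 0.0011). The muscle calpain Capn3 rose by 0.43 ± 0.10 (adjusted p = 0.00661), as did Trim72, which seals torn membranes (0.26 ± 0.08, adjusted p = 0.0324). Of all genes, 1723 were called higher in this comparison and 2281 lower, a split that became 459 and 5015 with scaling to library size alone.

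Counted by whether the CPM ranges of 2 groups overlapped, 9 of 10 members separated Surgery from Control, Flnc being the exception. This stood beside 66.1% of all genes, as happens readily with 2 libraries against 2. Of the members 5 separated pMT from Surgery (30.4% of genes), 6 pMT/VitD from Surgery (36.8%), 3 pMT/VitD from VitD (28.6%), 1 pMT from VitD (20.7%) and 7 VitD from Control (52.1%). Des was the 1 member that separated pMT/VitD from pMT (4.86% of genes). Set against Control, 4 members separated pMT, namely Des, Vim, Nes and Actn3 (15.2% of genes), and no member separated pMT/VitD (9.2%). No member separated VitD from Surgery (15.9% of genes), and the log2 differences there ran from -0.24 to 0.41, with an adjusted p of 1 for each.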

How the data were processed

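Paired-end reads from 15 muscle libraries were grouped by the sample labels into 5 groups. Trimming (Trimmomatic 0.38), alignment to rn6 (HISAT2 2.1.0), sorting (SAMtools 1.9) and quantification (StringTie 2.1.3b) were done by the authors, who deposited unnormalized read counts per gene beside FPKM and TPM values, scaled for gene length and depth. Handling of strand and of multiply aligned reads was not given in the sources used here. All tests rest on the counts, with TPM used for levels between genes, ratios and a relative gene length (mean count divided by mean TPM); FPKM was not used.

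Genes were filtered with filterByExpr, scaled by TMM and fitted over all 15 libraries with the quasi-likelihood model of edgeR 4.0.16 in R 4.3.3, with Benjamini-Hochberg adjustment at 0.05. The study's exactTest and DESeq2 1.42.0 were alternatives. The members and gene lists were chosen with earlier results of these data known. All members were named, and of each other list up to the 3 most abundant genes and up to the 2 with the smallest p in each direction for surgery minus control and for both pMT groups. On simulated counts for pMT/VitD minus surgery (16888 genes, 200 changed), 64% were recovered, 82% of those changed 4-fold, with 4 false calls. Promoter windows came from RefSeq (GRCr8).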

Additional observations from a re-analysis of the deposited data

Results flagged for a closer look

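Dixon's test for a library far from the rest of its group was run on the 10 genes in both groups of 4 libraries, 20 sets in all, of which chance flags about 1 in 20, and it picked out 5 sets. Vim stood at 449 CPM in pMT replicate 4, where pMT replicates 1 to 3 had 293 to 313 CPM. Flnc stood at 618 CPM in pMT replicate 4, against 1075 to 1087 CPM in the other 3. In the pMT/VitD group Flnc stood at 1299 CPM in replicate 4, against 631 to 669 CPM in the others, and Xirp1 at 987 CPM in the same library, against 138 to 203 CPM. Xirp2 stood at 495 CPM in pMT/VitD replicate 3, against 758 to 780 CPM in the others. Of these 5 sets, 4 involve pMT replicate 4 or pMT/VitD replicate 4. Groups of 2 and 3 libraries were not tested. No member passed the test of the interaction of pMT and VitD by edgeR's quasi-likelihood test (1 at an unadjusted p under 0.05, which is Des).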

How the results depend on the processing

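No value of a member changed direction while called: of 3460 values under alternatives, 3274 stayed on their side of the threshold, 120 gained a call, 66 lost one and 0 reversed. The counts of members called by edgeR's quasi-likelihood test were recomputed under each alternative, and the cause of each shift below was not tested. The percentage after a count is the share of all genes called in the same fit, which moved as well. In surgery minus control, 0 members (1.55%) became 8 in the fit on only those groups (32.4%) and 8 with exactTest (36.3%), 2 with library size only (5.8%), 2 with DESeq2 (5.82%), 5 without pMT replicate 4, pMT/VitD replicate 4 and VitD replicate 1 (14.2%), and 1, Des, without the first 2 of these and with the gene length offset (5.63%). In pMT minus surgery, 0 (1.94%) became 1, Nes, in the fit on only those groups (3.13%), 1 with exactTest (7.1%) and 3 without the 3 libraries (11%). In pMT/VitD minus surgery, 1 (7.44%) became 0 with any gene with a count (3.86%), 3 with library size only (18.9%), 3 with exactTest (10.8%), 2 with DESeq2 (12.9%), 3 without both replicates 4 (20.1%), 5 without the 3 libraries (28.2%) and 2 without both replicates 4 and with the offset (15.4%). In pMT/VitD minus pMT, 0 (0%) became 2, Flnc and Xirp1, without both replicates 4 (18.3%), 3 without the 3 libraries (26.8%) and 1, Des, with DESeq2 (0.541%). In pMT/VitD minus VitD, 4 (21.9%) became 2 in the fit on only those groups (11.3%). In pMT minus VitD, 1 (8.1%) became 3 with library size only (10%), 3 with the offset (12.2%), 0 on only those groups (2.97%), 2 without both replicates 4 (13%), 3 with the offset added (14.8%), and 4 with DESeq2 (12.9%). In VitD minus control, 2 (8.67%) became 4 with library size only (16.2%), 4 with the offset (13.7%), 4 without both replicates 4 and with the offset (18.5%), 4 with DESeq2 (14.4%) and 0 on only those groups (0.579%). In pMT/VitD minus control, 0 (0%) became 2 without the 3 libraries (5.59%), and in the interaction 0 (0%) became 1, Flnc, without both replicates 4 (1.89%) and 1 without the 3 (7.61%). For any difference among the 5 groups, 2 (11.8%) became 4 with library size only (20.8%), 5 without both replicates 4 (29.8%), 7 without the 3 (34.4%), 4 with the offset added to both omissions (23.3%) and 4 with DESeq2 (21.6%). The omissions of 2 and of 3 libraries and the sums over named copies were chosen after seeing the data, and the sums moved no count.

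With 1 library left out, the count ran from 0 to 2 in surgery minus control, 0 to 1 in pMT minus surgery, 0 to 3 in pMT/VitD minus surgery, 2 to 6 in pMT/VitD minus VitD, 0 to 3 in pMT minus VitD, 0 to 5 in VitD minus control, 1 to 6 for both pMT groups and 2 to 4 for any difference, and it stayed at 0 in the other 5 tests. The lowest count for both pMT groups came without Surgery replicate 2. Over all alternatives the adjusted p of the calls ran from 0.00148 to 0.172 for Vim, 9.48e-05 to 0.048 for Nes and 0.00713 to 0.163 for Xirp2 in pMT/VitD minus VitD, and from 0.000779 to 0.0536 for Vim, 2.59e-05 to 0.0586 for Nes and 0.00263 to 0.127 for Actn2 in both pMT groups. Replicate numbers are shared between groups, and the labels do not say whether they pair libraries. Same-numbered libraries had correlations of their deviations from -0.869 to 0.375 (median 0.0361, 24 pairs). Libraries with other numbers had -0.724 to 0.830 (median -0.0216, 64 pairs). These values cannot settle a pairing, since the deviations in a group of 2 libraries mirror each other. With the replicate block, 0 members were called in pMT/VitD minus surgery, 0 in pMT minus VitD, 3 in pMT/VitD minus VitD, 3 for both pMT groups and 1 for any difference; with the replicate block and the gene length offset these were 0, 0, 3, 2 and 2, and VitD minus control went from 2 to 4.

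Over the alternatives the number of genes called among all tested ran from 8 to 5923 in surgery minus control (266 as reported), 27 to 1878 in pMT minus surgery (334), 122 to 4793 in pMT/VitD minus surgery (1279), 0 to 4551 in pMT/VitD minus pMT (0), 1816 to 5758 in pMT/VitD minus VitD (3766), 485 to 2549 in pMT minus VitD (1393), 13 to 3184 in VitD minus control (1492), 0 to 951 in pMT/VitD minus control (0), 0 to 1294 in the interaction (0), 2007 to 5474 for both pMT groups (4004) and 1080 to 5859 for any difference (2035). The lowest count of any member in a library was 598, for Nes, and whether depth or the number of libraries limited the calls was not tested.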
